A study of Homo sapiens with 12 samples.

Results

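BEZ-235 alone was compared with its solvent in NB-1 cells, an established human neuroblastoma line, across all genes of the deposited count table. The comparison used 6 of the 12 libraries of the series, 3 from cells given DMSO and 3 from cells given 0.5 µM BEZ-235, each harvested after 48 hours. The other 6 libraries, from cells given 0.5 µM SAHA (vorinostat, an inhibitor of histone deacetylases) or BEZ-235 and SAHA together at those doses, entered the fit to estimate the spread between replicates. They also entered the filter on low counts and the scaling of library sizes. Polyadenylated RNA was sequenced from stranded libraries, and a test was possible for 17774 of the 58051 genes listed. All 4 groups are 1 cell line, grown with fetal bovine serum, so every value below describes that line at that single dose and time. The labels call the 3 samples of a group biological replicates without saying how they were separated, and p-values measure the spread between these samples. The total was between 18832324 and 23408894 expected counts per library, and log2 values of libraries within the DMSO and BEZ-235 groups correlated across genes with r between 0.984 and 0.988.

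BEZ-235, also called dactolisib, blocks the ATP sites of class I PI3K and of mTOR in both of its complexes. PI3K makes the membrane lipid that activates AKT. Active AKT keeps FOXO transcription factors out of the nucleus and, through the TSC complex, allows mTORC1 to run. mTORC1 promotes ribosome production, translation, lipid and nucleotide synthesis and nutrient uptake and holds back autophagy, while mTORC2 completes the activation of AKT. Neuroblastoma arises from the sympathoadrenal lineage of the neural crest, and NB-1 carries amplified ALK and MYCN. ALK is a receptor tyrosine kinase that signals through PI3K and MAPK.

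A pair of sequence elements belongs to this pathway and to the gene groups described below. One is a run of pyrimidines at the very start of an mRNA, which begins with C and makes translation of ribosomal protein and elongation factor mRNAs depend on mTORC1. The following RefSeq sequences (GRCh38.p14) run from 5 bases before to 20 bases from the annotated start, on the strand of the gene. They are from genes of the translation lists and a host RNA that changed. Capitals mark a C followed by at least 4 further C or T, with its first letter 3 bases before the start or up to the fourth base.

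TPT1 and the next 6 genes rose, and each start holds such a tract.
TPT1, chr13:45341164-45341188 (-): tcggCCTTTTCCgcccgctcccccc
RACK1, chr5:181243887-181243911 (-): tctCTCTCTCTTTCactgcaaggcg
NACA, chr12:56725280-56725304 (-): tcggtCTTTCTgccgccatcttggt
BTF3, chr5:73498437-73498461 (+): ggCCTCCCTTTagctgccatcttgc
EIF4B, chr12:53006451-53006475 (+): cgggtCTTTTgcgttctctttccct
EIF4A2, chr3:186783572-186783596 (+): gctgtCTTTTCagtcgggcgctgag
ZFAS1, chr20:49278637-49278661 (+): tcgttCTTTCgcgtctgcggtgccc

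EIF4E, EIF5A and GSPT1 fell, and the same window shows no tract.
EIF4E, chr4:98929114-98929138 (-): cggttgtgcgatcagatcgatctaa
EIF5A, chr17:7306994-7307018 (+): acccgaccacactagcgcgctagaa
GSPT1, chr16:11916635-11916659 (-): gagccacactgcagttttaagccgg

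The other element is the core of the FOXO binding site, TGTTTAC, searched on both strands, which reads GTAAACA on the other strand. A match upstream of the annotated start was printed for 3 genes of the FOXO list that rose, with 20 bases on each side. Capitals mark the match. HBP1 is a transcriptional repressor, BCL2L11 encodes the death-promoting protein BIM, and TXNIP encodes an arrestin-like protein that limits glucose uptake.
HBP1, chr7:107168810-107168856 (+): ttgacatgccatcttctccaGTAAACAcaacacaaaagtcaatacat
BCL2L11, chr2:111120671-111120717 (+): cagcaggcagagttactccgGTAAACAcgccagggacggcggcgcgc
TXNIP, chr1:145996677-145996723 (-): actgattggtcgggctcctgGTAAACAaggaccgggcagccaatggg

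Windows of 300 bases, from 250 before to 50 after the start, could be matched to 11609 of the 17646 tested genes with a symbol. A start tract was present in 1687 of them (14.5%), and TGTTTAC on either strand in 269 (2.32%). In the comparison of BEZ-235 with DMSO, 33.4% of genes with a start tract rose and 24.4% fell, against 24.3% and 31.2% of genes without one. Genes with a FOXO core rose in 38.3% of cases and fell in 21.6%, against 25.3% and 30.5% without it. A correction for GC content and length used an offset for each library from a smooth fit on both. Both were those of the longest GENCODE transcript of each gene. After this correction the shares were 38.3% and 27.0% with a tract against 27.6% and 34.3% without one. For the FOXO core they were 41.6% and 24.5% against 28.8% and 33.4%. Genes whose starts hold no tract by this definition, such as SNHG1 and EIF1, also rose. The shares therefore describe windows and not a rule for single genes. A single annotated start was read per gene, and a tract at another start would be missed. The window read for GAS5, chr1:173869026-173869050, held no tract but lies outside its GENCODE coordinates, which end at 173868882.

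**Figure D1:**
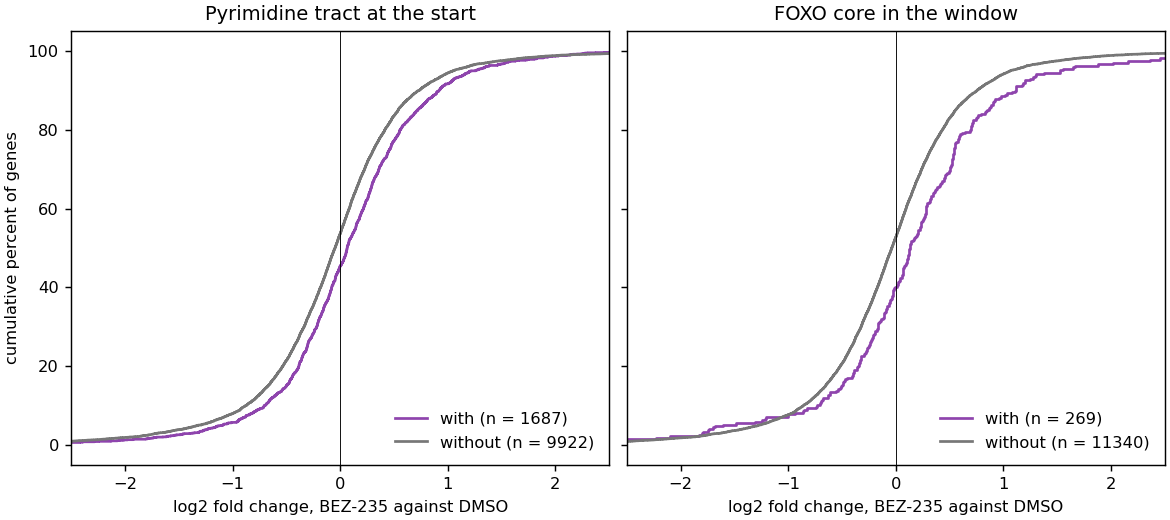
Cumulative share of genes (y axis, percent) by log2 fold change of BEZ-235 against DMSO (x axis), for genes with and without a pyrimidine tract at the annotated start (left) and a FOXO core within the 300-base window (right). Both curves of genes with the element lie to the right of the curves without it through most of the range, and all 4 curves span both directions.

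After 48 hours of BEZ-235 the change covered most classes of genes. By edgeR's quasi-likelihood test with Benjamini-Hochberg adjustment, 9051 of 17774 genes (50.9%) passed an adjusted p of 0.05. The calls were nearly even, with 4533 genes higher (25.5%) and 4518 lower (25.4%), and the median log2 fold change of all tested genes was 0.02. All changes are relative to the counts of the library. Scaling of library sizes (TMM) assumes that most genes do not change, so this balance follows in part from the scaling. No measure of RNA per cell was used. Most changes were moderate, since the median fold of a called gene was 1.58 and 2545 genes (14.3%) passed with at least a 2-fold change, 1320 higher and 1225 lower. At least 4-fold changes were called for 259 genes higher and 307 lower. The libraries of one group lay wholly above those of the other for 59.2% of tested genes, and for 96.6% of called genes. In bulk RNA, fewer cells of a type and less RNA per cell cannot be told apart. The shares of 25.5% and 25.4% are the background against which each gene list below is read. The lists of cell cycle (239 of 282 lower), sterol and fatty acid synthesis (38 of 44 lower) and ribosomal protein genes (74 of 81 higher) were set aside from the description.

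**Figure D2:**
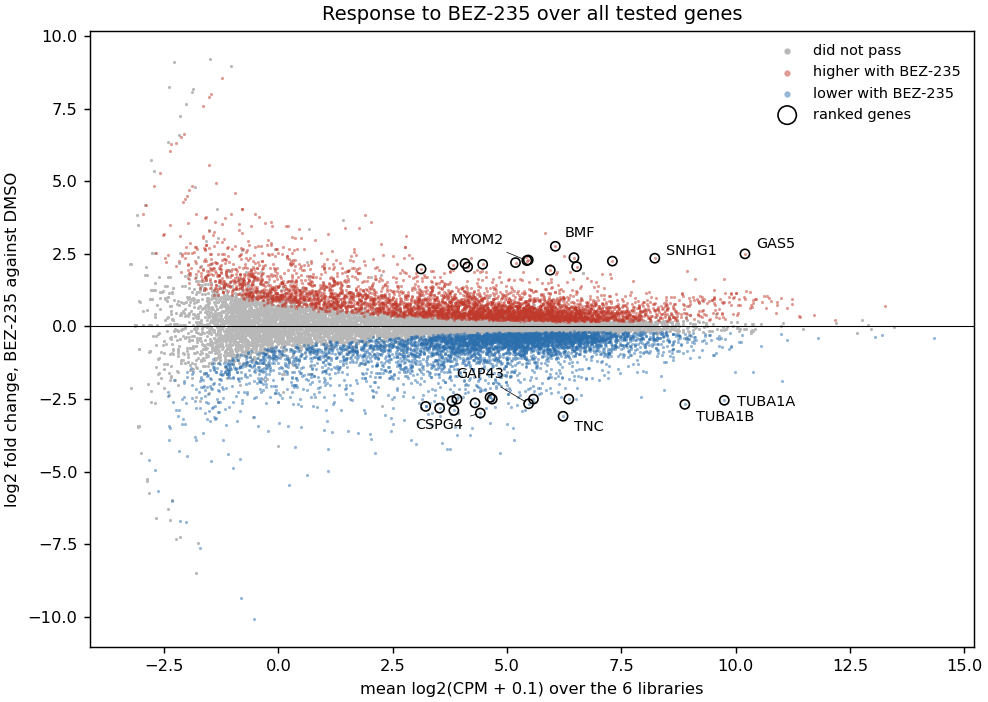
Log2 fold change of BEZ-235 against DMSO (y axis) against mean log2 CPM (counts per 1000000 counts of the library, with TMM-scaled library sizes, plus 0.1) over the 6 libraries (x axis) for 17774 genes. Grey points did not pass the test, coloured points are the 4533 higher and 4518 lower genes, and the 15 highest and 15 lowest ranked genes are circled, several of them with their symbols.

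Receptors and adaptors upstream of PI3K moved both ways. Of 19 tested genes for insulin, IGF and ERBB receptors and their adaptors, 5 rose and 6 fell. The 5 that rose were the receptors INSR and IGF1R and the docking proteins IRS1, IRS2 and GAB2. IRS2, the adaptor that couples insulin receptors to PI3K, was at 101, 91.8 and 93.6 CPM in DMSO and 189, 207 and 206 CPM with BEZ-235. All 3 treated libraries lay about the same distance above the controls, a log2 fold change ± SE of 1.07 ± 0.08 (n = 3 per group; adjusted p = 7.54e-09). INSR, the insulin receptor, was at 15, 13.4 and 14.4 CPM in DMSO and 27.0, 26.3 and 29.3 CPM with BEZ-235, a change of 0.95 ± 0.10. Its groups did not overlap either. IRS1 rose by 0.96 ± 0.12, GAB2 by 1.04 ± 0.08 and IGF1R by 0.62 ± 0.09. Among the 6 that fell were EGFR at -0.52 ± 0.08, ERBB2 at -0.59 ± 0.11, the adaptor SHC1 at -0.47 ± 0.07 and GRB10, which dampens insulin receptor signals, at -0.43 ± 0.08. Corrected for GC content and length, 8 of the 19 passed as higher.

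The receptor tyrosine kinases outside that list leaned lower, with 9 of 21 lower and 4 higher. The higher count was 1 or 2 when BEZ-235 replicate 1 or 2, DMSO replicate 2 or 3, SAHA replicate 1 or 2 or replicate 2 of both drugs was left out, with a replicate block (a term for the replicate number), with no filter on low counts or from the 6 libraries alone. RET, the receptor for glial-derived neurotrophic factors, was at 353, 301 and 307 CPM in DMSO and 189, 224 and 201 CPM with BEZ-235. Every treated library was below every control, a change of -0.65 ± 0.10 (adjusted p = 6.11e-05). INSRR, a relative of the insulin receptor counted in this list, changed by -1.12 ± 0.13, opposite to INSR and IGF1R. TYRO3 changed by -0.78 ± 0.10 and FGFR1 by -0.56 ± 0.07. ALK was at 4622, 3802 and 4370.3 CPM in DMSO and 5074, 4958 and 5086 CPM with BEZ-235. Its treated libraries lay above the controls, yet the change of 0.24 ± 0.09 (adjusted p = 0.0383) did not pass with a replicate block, with no filter on low counts, or when any of BEZ-235 replicates 1 to 3, DMSO replicate 2 or 3, SAHA replicate 1 or 2 or replicate 2 of both drugs was left out. MYCN, the amplified transcription factor, was at 926, 1157 and 1103 CPM in DMSO and 1091, 1001 and 1005 CPM with BEZ-235, and its groups overlapped with a change of -0.04 ± 0.10 (adjusted p = 0.756).

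Subunits of PI3K itself moved in opposite directions. PIK3R3, a regulatory subunit (chr1:46040140-46133036), was at 111, 112 and 108 CPM in DMSO and 34.2, 30.8 and 32.4 CPM with BEZ-235. The treated libraries lay well below the controls with little spread in either group, and the change was -1.76 ± 0.10 (adjusted p = 3.49e-10). PIK3R2, another regulatory subunit, changed by -0.86 ± 0.08, while the catalytic subunit gene PIK3CA changed by 0.53 ± 0.12 and PIK3IP1, whose protein inhibits PI3K, by 0.66 ± 0.12. INPP5D, the lipid phosphatase SHIP1, was low in both groups and fell by 2.14 ± 0.34. In all, 6 of 20 genes of this list rose and 7 fell. The kinases and complexes downstream were as divided, with 8 of 21 higher and 9 lower. DEPTOR, an inhibitory partner of mTOR, was at 7.37, 6.68 and 6.85 CPM in DMSO and 16.6, 18.7 and 18.5 CPM with BEZ-235, with no overlap and a change of 1.36 ± 0.11. RICTOR, the defining subunit of mTORC2, changed by 0.90 ± 0.15 and PDPK1, which phosphorylates AKT, by 0.46 ± 0.08. RPTOR, the defining subunit of mTORC1, changed by -0.76 ± 0.11 and MTOR by -0.30 ± 0.09. TTI1 and TTI2, parts of the complex that assembles mTOR, changed by -0.48 ± 0.08 and -0.56 ± 0.11.

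Among 22 genes for mTORC1 effectors, 3 rose and 8 fell, and 6 passed as higher after the GC and length correction. ATF4 and EIF4B were among the 3. SREBF1, the regulator of fatty acid synthesis genes, was at 48.3, 44.6 and 38.4 CPM in DMSO and 17.3, 13.1 and 12.6 CPM with BEZ-235, a change of -1.61 ± 0.13 without overlap, and SREBF2 fell by 0.67 ± 0.08. EIF4EBP1, the translation repressor that mTORC1 inactivates, changed by -0.93 ± 0.13 and its partner EIF4E by -0.63 ± 0.10. Among 34 brakes that act on mTORC1 under stress or when nutrients are short, 10 rose and 9 fell. DDIT4, also known as REDD1, was at 69.2, 78.9 and 65.4 CPM in DMSO and 18.2, 15.6 and 13.9 CPM with BEZ-235, and its treated libraries were all far below the lowest control, a change of -2.17 ± 0.12 (adjusted p = 2.45e-10). SESN2, a leucine sensor, fell by 1.39 ± 0.15. The amino acid branch had genes that rose, with FNIP1 at 0.96 ± 0.10, RRAGB at 0.76 ± 0.09, NPRL2 at 0.54 ± 0.08 and FLCN at 0.53 ± 0.09.

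FOXO factors and their reported target genes mostly rose. Of 31 tested, 17 were higher (54.8%) and 3 lower, with a median log2 fold change of 0.56, and 5 were lower after the GC and length correction. The list was drawn up with earlier results of these data known. BCL2L11 was at 53.7, 52.3 and 50.6 CPM in DMSO and 113, 99.0 and 109 CPM with BEZ-235. The groups were far apart with little spread within each, a change of 1.03 ± 0.07 (adjusted p = 1.04e-08). HBP1 (chr7:107168961-107202529), the gene in the title of the series, was at 59.8, 65.5 and 62 CPM in DMSO and 104, 119.5 and 117 CPM with BEZ-235. All 3 treated libraries were higher, with a change of 0.86 ± 0.11 (adjusted p = 4.26e-06). KLHL24 and FBXO32, adaptors of ubiquitin ligases, changed by 1.64 ± 0.09 and 3.13 ± 0.14, and YPEL3, a growth suppressor, by 1.65 ± 0.11. The 3 lower genes were CAT (catalase) at -0.42 ± 0.10, GADD45A at -0.51 ± 0.13 and SESN1 at -0.33 ± 0.10. Of the 26 members with a promoter window, 5 held TGTTTAC. These were YPEL3, HBP1, BCL2L11, FOXO4 and TXNIP, all among the 15 of the 26 that rose.

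MAPK signalling is the other main branch below ALK. Its feedback and output genes did not move one way: 7 of 27 rose and 10 fell. DUSP6, the phosphatase that switches off ERK and is itself induced by ERK, was at 43.4, 30.9 and 32.5 CPM in DMSO and 8.26, 9.31 and 6.58 CPM with BEZ-235. DMSO replicate 1 was the highest, and each treated library lay far below each control, a change of -2.15 ± 0.15 (adjusted p = 1.05e-08). SPRY2 and ETV5, also ERK-induced, changed by -0.97 ± 0.08 and -0.72 ± 0.10, whereas DUSP4 changed by 0.41 ± 0.08, SPRED1 by 0.58 ± 0.11 and ETV1 by 0.58 ± 0.10. Immediate early genes leaned lower, 9 of 24 against 4 higher, with JUN at -0.92 ± 0.13 and BTG2 at -1.03 ± 0.08. FOS went the other way at 1.42 ± 0.22.

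ATF4 and many of its usual targets went apart. ATF4, the transcription factor of the amino acid and stress response, was at 255, 281 and 231 CPM in DMSO and 989.5, 945 and 926 CPM with BEZ-235. The 3 treated libraries were above all controls by a change of 1.90 ± 0.09 (adjusted p = 6.55e-11). DDIT3 and CEBPB, transcription factors of the same response, were also higher, at 1.72 ± 0.11 and 1.93 ± 0.14, as was PPP1R15A at 1.35 ± 0.10, which restores translation after stress. Of 29 genes in the list of ATF4 targets and serine, asparagine and proline synthesis, 8 rose and 17 fell (58.6%), with a median of -0.39. PSAT1, an enzyme of serine synthesis, was at 116, 119.9 and 119 CPM in DMSO and 43.5, 46.3 and 46.2 CPM with BEZ-235, and its 3 treated values stood well under the controls, a change of -1.38 ± 0.09 (adjusted p = 2.06e-09). PHGDH, the first enzyme of that route, changed by -0.78 ± 0.09 and GPT2, an alanine transaminase, by -0.88 ± 0.09. Of 22 members with a promoter window, 4 held the ATF4 core TGATGNAA on either strand, and 0 of the 7 of those 22 that rose did. That core is in 1.73% of all matched windows.

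Genes for the uptake and synthesis of building blocks were lower more often than higher in the purine, pyrimidine and folate lists. Amino acid transporters went both ways, with 7 of 24 higher and 8 lower. SLC7A5, the light chain of the leucine transporter, was at 118, 122 and 111 CPM in DMSO and 57.7, 58.5 and 55.0 CPM with BEZ-235, all treated libraries well below the controls, a change of -1.04 ± 0.08. SLC7A11, the cystine transporter, changed by -1.96 ± 0.26, SLC1A4 by -0.60 ± 0.09 and SLC43A2 by -1.21 ± 0.17. The neuronal transporters SLC6A15 and SLC6A17 changed by 0.76 ± 0.08 and 1.52 ± 0.19. Purine and pyrimidine synthesis had 12 of 22 lower and 2 higher, among them CTPS1 at -1.10 ± 0.08, NME1 at -0.88 ± 0.09 and PFAS at -0.71 ± 0.08, with IMPDH2 higher at 0.72 ± 0.09. The higher count of that list was 4 without DMSO replicate 2 and 1 without BEZ-235 replicate 1, DMSO replicate 1 or DMSO replicate 3, or with no filter. Folate enzymes had 10 of 19 lower, with GLDC, which cleaves glycine, at 61.0, 57.6 and 55.3 CPM in DMSO and 28.5, 28.2 and 30.6 CPM with BEZ-235. Its treated libraries were all lower, by a change of -0.99 ± 0.08. MTHFD1 changed by -0.50 ± 0.07 and SHMT1 by -1.42 ± 0.13.

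Of 26 glycolysis genes 13 were lower and 5 higher. PKM changed by -0.99 ± 0.08, PGAM1 by -0.92 ± 0.09, LDHA by -0.80 ± 0.09 and TPI1 by -0.85 ± 0.09, while PFKM, PFKP and GAPDH were higher at 0.82 ± 0.08, 0.57 ± 0.09 and 0.36 ± 0.09. In the pentose phosphate route TALDO1 changed by -0.38 ± 0.10, with TKT at 0.43 ± 0.09. Targets of hypoxia-inducible factors were even, 10 of 27 higher and 9 lower. EPAS1, which encodes one of those factors, rose from 0.94, 0.99 and 0.71 CPM to 4.13, 4.28 and 4.69 CPM, and NDRG1 from 3.76, 2.96 and 3.25 CPM to 9.49, 13.6 and 12.3 CPM. Both genes showed no overlap between groups, with changes of 2.31 ± 0.19 and 1.83 ± 0.15. P4HA2, HILPDA and CA12 of the same list went down, at -1.43 ± 0.15, -0.77 ± 0.09 and -0.59 ± 0.08. In fatty acid oxidation 9 of 27 rose and 9 fell. PPARGC1A, the coactivator of mitochondrial genes, was at 20.8, 20.2 and 22.3 CPM in DMSO and 49.4, 54.1 and 59.0 CPM with BEZ-235, a change of 1.36 ± 0.09 without overlap, and CPT1A, which admits fatty acids to mitochondria, rose by 0.66 ± 0.07.

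Iron handling contained opposite changes of a well-known pair. TFRC (chr3:196027183-196082189), the transferrin receptor that brings iron into the cell, was at 518, 542 and 623 CPM in DMSO and 113, 93.5 and 109 CPM with BEZ-235. DMSO replicate 3 was the highest, and every treated library was far below every control, a change of -2.41 ± 0.12 (adjusted p = 7.95e-11). FTL, the light chain of the iron store ferritin, was at 139, 162 and 124 CPM in DMSO and 305, 314 and 287 CPM with BEZ-235, all 3 treated libraries above the controls, a change of 1.09 ± 0.10 (adjusted p = 1.57e-07). STEAP3, an endosomal iron reductase, changed by 0.96 ± 0.08, SLC25A37, the mitochondrial iron importer, by 0.61 ± 0.08 and ACO1, an iron regulatory protein, by -0.59 ± 0.07. Over the list 6 of 17 rose and 4 fell. Of 30 NRF2 and glutathione genes 16 were lower (53.3%) and 4 higher. GSS, glutathione synthetase, was at 40.8, 42.3 and 36.4 CPM in DMSO and 9.54, 11.3 and 8.90 CPM with BEZ-235, with a change of -2.01 ± 0.13 and no overlap, and the peroxiredoxins PRDX1 and PRDX4 changed by -0.95 ± 0.11 and -0.89 ± 0.09. GCLC, the enzyme of the step before GSS, was higher at 0.52 ± 0.07.

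**Figure D3:**
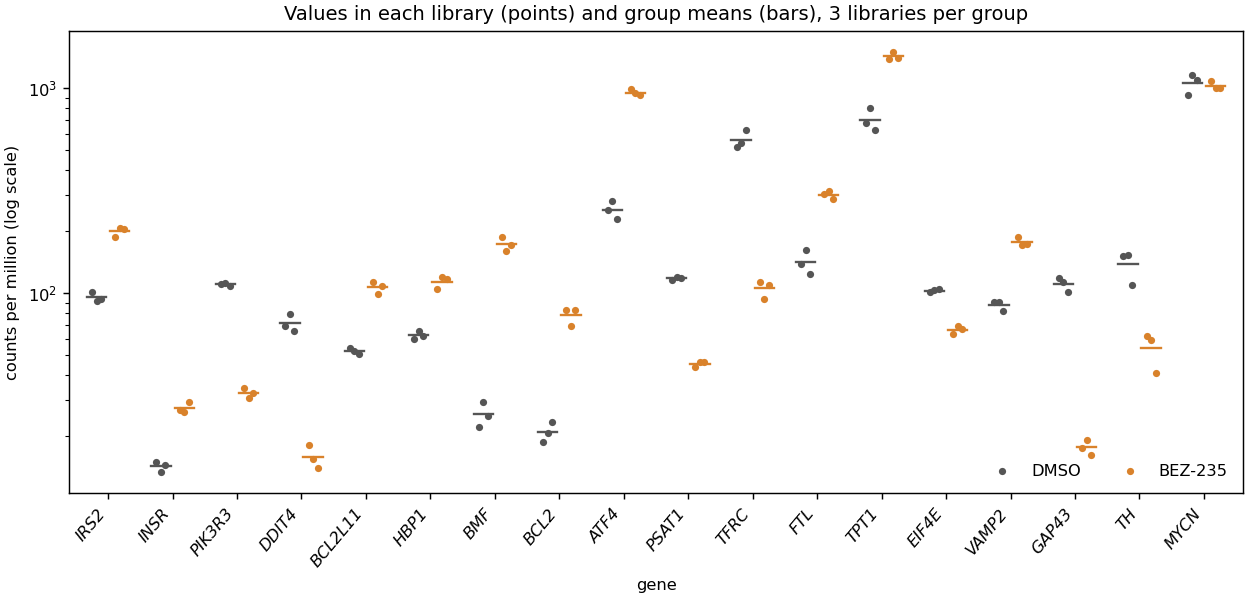
CPM (y axis, log scale) in each of the 3 DMSO and 3 BEZ-235 libraries (points, side by side for each gene on the x axis) for 18 genes described in the text, with a bar at each group's mean. The groups do not overlap for the genes shown, except MYCN.

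Genes in the list of translation elongation and release factors were mostly higher. Of 18 tested, 12 rose (66.7%) and 1 fell, with a median of 0.58. The list also holds TPT1, RACK1, NACA, BTF3, FAU and NAP1L1, which are not elongation or release factors. The lower count was 2 by DESeq2, after the GC correction, from the 6 libraries alone, or without DMSO replicate 3, SAHA replicate 1 or replicate 1 of both drugs. TPT1, which binds elongation factors and has a start tract shown above, was at 678, 802 and 623 CPM in DMSO and 1391, 1500.2 and 1408 CPM with BEZ-235. The treated libraries all exceeded the controls, a change of 1.03 ± 0.10 (adjusted p = 5.23e-07). RACK1, a protein of the small ribosomal subunit, rose by 1.05 ± 0.09. NACA and BTF3, partners that meet new chains at the ribosome, changed by 1.16 ± 0.10 and 0.77 ± 0.10. GSPT1, a release factor without a tract, fell by 0.33 ± 0.09. Of the 10 higher members with a window, 8 held a start tract, against 0 of the 4 others. The 8 were EEF1A1, EEF2 and the members named above as not elongation or release factors. This share therefore depends on which genes were put in the list.

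Initiation factors rose in 18 of 44 cases and fell in 6, or 10 after the GC and length correction. EIF1, which helps select the start codon, was at 314, 345 and 280.0 CPM in DMSO and 960.1, 999.9 and 970.1 CPM with BEZ-235, and all treated libraries were well above the controls, a change of 1.64 ± 0.10 (adjusted p = 2.06e-09). EIF4A2, an RNA helicase, and its cofactor EIF4B changed by 1.15 ± 0.09 and 1.16 ± 0.08, and PABPC1, the poly(A)-binding protein, by 1.02 ± 0.08. EIF4E, the cap-binding protein, was at 101, 103 and 105 CPM in DMSO and 63.4, 69.1 and 66.7 CPM with BEZ-235, a change of -0.63 ± 0.10, and EIF5A fell by 0.88 ± 0.09. A start tract was found in 8 of 14 higher members with a window and 3 of 23 others. Ribosomal proteins, the best-known bearers of the tract, held it in 48 of 67 windows.

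Host genes of small nucleolar RNAs, whose spliced transcripts are mostly not translated, rose in 17 of 25 cases (68.0%) and 0 fell by edgeR. At an unadjusted p under 0.05 the count of lower genes was 1, and by DESeq2 0. With the GC correction, from the 6 libraries alone, or without DMSO replicate 2 or replicate 3 of both drugs, 1 fell. GAS5 (chr1:173863900-173868882) was at 473, 546 and 468 CPM in DMSO and 2825, 2809 and 2774 CPM with BEZ-235, far apart in all libraries, with a change of 2.5 ± 0.10 (adjusted p = 1.07e-11). ZFAS1 was at 17.6, 20.2 and 18.1 CPM in DMSO and 178, 174 and 169 CPM with BEZ-235, a change of 3.22 ± 0.09, the highest of the list. SNHG1 was at 131, 139 and 129 CPM in DMSO and 699, 671 and 665 CPM with BEZ-235, with no overlap, and EPB41L4A-AS1 rose by 2.42 ± 0.10. ZFAS1 is annotated as an antisense gene and EPB41L4A-AS1 carries such a name, and the sources used here do not say whether the counting used strand. A start tract was found in 9 of 21 windows of this list. Of 58 genes of ribosome assembly and RNA polymerase I, 19 fell and 10 rose, or 6 rose without DMSO replicate 1 or 3 or with no filter on low counts. TCOF1, a factor for ribosomal RNA transcription, changed by -0.50 ± 0.08 and NOP10 by -0.68 ± 0.11, while NPM1 changed by 0.67 ± 0.10 and POLR1D by 1.21 ± 0.08.

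Genes for protein breakdown, protein folding in the endoplasmic reticulum and respiration were mostly lower. Of 40 genes in the list of proteasome subunits, 25 fell (62.5%) and 1 rose, with a median of -0.48. The single higher gene was PSMF1, which encodes an inhibitor of the proteasome and not a subunit. It was not called when any BEZ-235 library or DMSO replicate 3 was left out, or with no filter. PSMD2, a subunit of the proteasome's regulatory particle, was at 274, 289 and 268 CPM in DMSO and 163, 143 and 145 CPM with BEZ-235, all treated libraries below the controls, a change of -0.88 ± 0.08 (adjusted p = 1.17e-07). PSMB3, PSMD11 and PSMD14 changed by -1.03 ± 0.10, -0.68 ± 0.07 and -1.02 ± 0.11. Chaperones and other genes of the endoplasmic reticulum fell in 27 of 43 cases (62.8%) and rose in 9. HYOU1 changed by -0.97 ± 0.07, MANF by -1.15 ± 0.10, CALR by -1.02 ± 0.07 and PDIA4 by -1.23 ± 0.07. Their sensor ERN1, also called IRE1, was at 5.54, 5.13 and 5.03 CPM in DMSO and 9.70, 12.2 and 10.7 CPM with BEZ-235, higher without overlap by 1.06 ± 0.13, and EDEM1, which helps dispose of misfolded glycoproteins, rose by 0.38 ± 0.07. Cytosolic heat shock genes were nearer the background, 15 of 42 lower and 6 higher. HSP90AA1 and HSP90AB1, the inducible and constant forms of one chaperone, went apart at -0.68 ± 0.09 and 0.41 ± 0.08.

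Nuclear genes for respiratory complex I fell in 26 of 38 cases (68.4%) and rose in 3, with a median of -0.43. NDUFS6 was at 35.7, 42.4 and 30.2 CPM in DMSO and 17.5, 14.4 and 14.7 CPM with BEZ-235, and its treated libraries were below all controls by a change of -1.22 ± 0.15 (adjusted p = 3.88e-06). NDUFB6 changed by -0.95 ± 0.12 and NDUFA13 by -1.01 ± 0.13, whereas NDUFV3 was higher at 0.39 ± 0.08. In complexes III to V, 17 of 36 fell and 7 rose, including ATP5MC1 at -0.76 ± 0.08 and ATP5MC2 at 0.53 ± 0.09, which encode the same subunit of ATP synthase. Of 78 mitochondrial ribosomal protein genes 34 were lower and 13 higher. Of 13 genes encoded by the mitochondrial genome, 5 fell and 0 rose by edgeR, with 0 higher at an unadjusted p under 0.05 and 0 by DESeq2. The lower ones included MT-ND5 at -0.40 ± 0.10 and MT-CO1 at -0.41 ± 0.10. In the citric acid cycle, IDH2 changed by -1.19 ± 0.11 and CS, citrate synthase, by 0.44 ± 0.07.

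Recycling routes had no common direction. Among 46 autophagy genes, 15 rose (32.6%) and 9 fell, with a median of 0.07. GABARAPL1, which coats autophagosomes, was at 4.6, 5.50 and 4.0 CPM in DMSO and 14.8, 13.2 and 14 CPM with BEZ-235, with all treated libraries above the controls and a change of 1.57 ± 0.14 (adjusted p = 8.61e-08). The cargo receptors CALCOCO2, NBR1 and OPTN changed by 0.89 ± 0.08, 0.75 ± 0.07 and 0.68 ± 0.07, and the early factor WIPI1 by -0.45 ± 0.09. Lysosomal genes were near the background, 14 of 56 higher and 17 lower, with the proteases CTSF, CTSK and CTSB at 1.3 ± 0.09, 1.28 ± 0.11 and 0.68 ± 0.07. Of 20 subunits of the vacuolar proton pump 7 were lower and 1 higher, ATP6V1G2 at 0.73 ± 0.11, a form found in neurons. The higher count was 2 after the GC correction or without replicate 1 of both drugs.

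**Figure D4:**
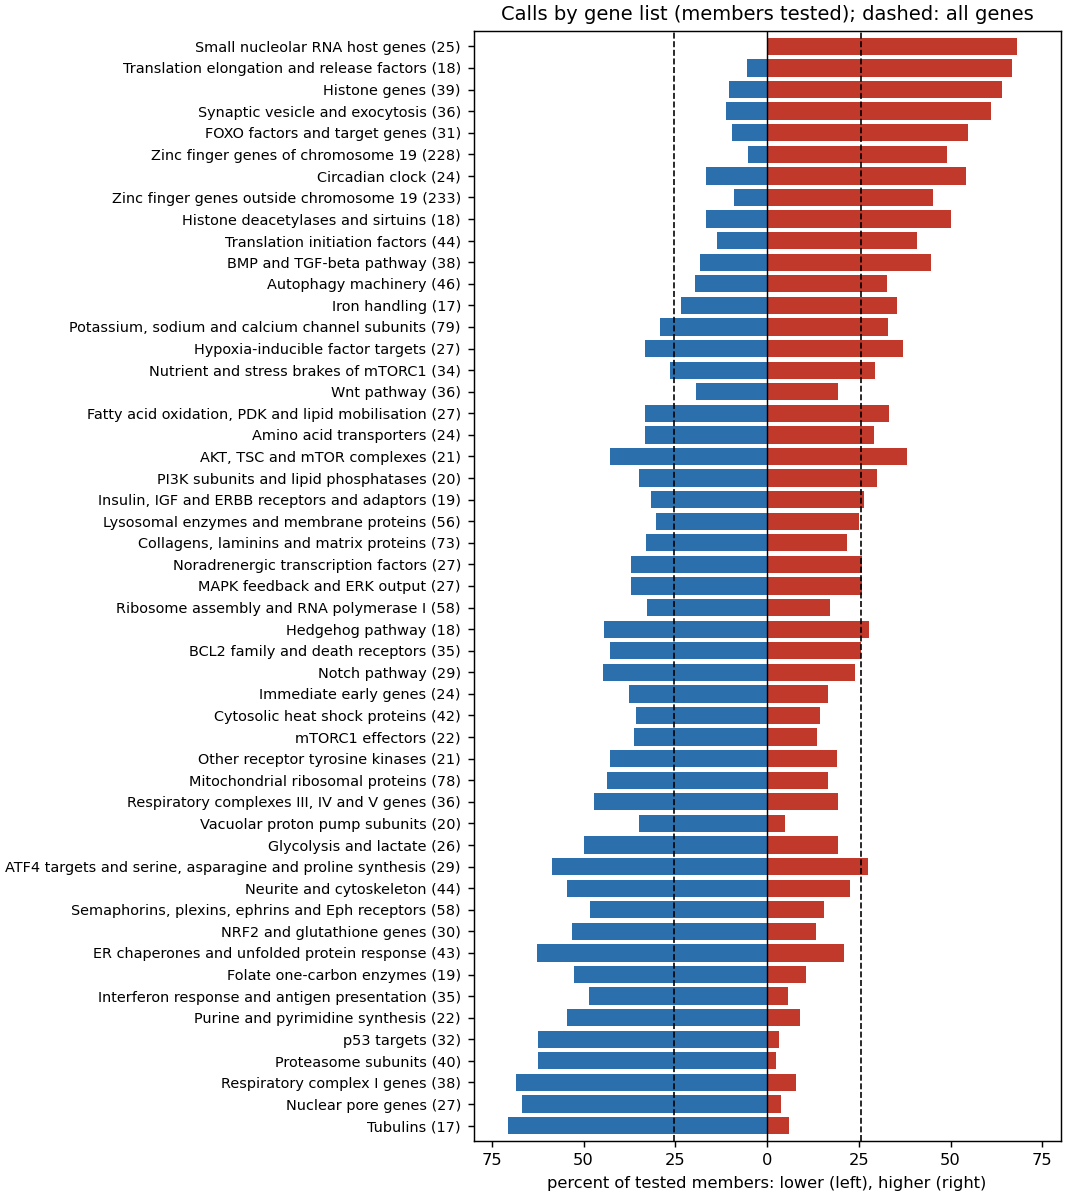
Percent of tested members called higher (right, positive) and lower (left, negative) by edgeR for 51 gene lists, ordered by the difference of the shares. The dashed lines at 25.5% and 25.4% are the shares over all 17774 genes, and small nucleolar RNA host genes and proteasome subunits lie near opposite ends.

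Synaptic vesicle genes leaned higher and neurite genes lower. Genes of synaptic vesicles and exocytosis rose in 22 of 36 cases (61.1%) and fell in 4, with a median of 0.33. VAMP2, the vesicle protein of the fusion complex, was at 90.7, 90.7 and 81.6 CPM in DMSO and 187, 171 and 174 CPM with BEZ-235, all treated libraries above the controls and a change of 1.02 ± 0.07 (adjusted p = 1.21e-08). RAB3C, CADPS and CPLX2, which act in vesicle release, changed by 1.18 ± 0.10, 1.43 ± 0.12 and 0.94 ± 0.08, and SV2A by -0.58 ± 0.07. Neurite and cytoskeleton genes fell in 24 of 44 cases (54.5%) and rose in 10, or in 5 or 6 when BEZ-235 replicate 3, DMSO replicate 1 or DMSO replicate 2 was left out or with no filter. GAP43, the growth cone protein, was at 119, 114 and 101 CPM in DMSO and 17.6, 19.1 and 16.2 CPM with BEZ-235, with the treated libraries far below the controls and a change of -2.66 ± 0.10 (adjusted p = 4.97e-12). TUBA1A, the alpha-tubulin typical of young neurons, was at 2137, 2155 and 1950.4 CPM in DMSO and 361, 373 and 335 CPM with BEZ-235, with no overlap and a change of -2.54 ± 0.09. Tubulin mRNAs as a family fell in 12 of 17 cases, TUBA1B at -2.68 ± 0.11 and TUBB4B at -2.5 ± 0.12 among them. The alpha-tubulin genes are highly similar in sequence, so the way the counting shares reads between them makes each single value uncertain. STMN2, NCAM1, MAP2 and MAP6 rose, by 0.62 ± 0.09, 0.43 ± 0.07, 0.43 ± 0.10 and 0.61 ± 0.08.

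Noradrenergic markers stayed expressed. The 10 defining markers checked summed to between 1618 and 1882 CPM in DMSO and between 1506 and 1691 CPM with BEZ-235, with 4 higher and 3 lower. Of 27 noradrenergic transcription factors, 7 rose and 10 fell, with a median of -0.04. ISL1, a factor of sympathetic neuron development, was at 26.3, 26.4 and 21.8 CPM in DMSO and 10.3, 12.2 and 10.2 CPM with BEZ-235, each treated library below the controls, a change of -1.18 ± 0.12, while HAND1 rose by 0.69 ± 0.11, LMO1 by 1.05 ± 0.21 and MEIS2 by 0.40 ± 0.07. TH, the first enzyme of catecholamine synthesis, was at 152, 153 and 109 CPM in DMSO and 61.7, 59.2 and 40.9 CPM with BEZ-235. Replicate 3 was the lowest in both groups, and the change was -1.36 ± 0.25 (adjusted p = 0.00111). GCH1, which makes the cofactor of TH, changed by -1.31 ± 0.19, and SLC18A2, the vesicle transporter of monoamines, by 0.49 ± 0.11. The chromogranins, proteins of secretory granules, diverged. CHGA was at 561, 533 and 505 CPM in DMSO and 289.9, 298 and 261 CPM with BEZ-235. CHGB was at 104, 96.2 and 102 CPM in DMSO and 163, 166 and 168 CPM with BEZ-235. The groups overlapped for neither, with changes of -0.91 ± 0.10 for CHGA and 0.72 ± 0.07 for CHGB. TAC3, a neurokinin precursor, changed by 3.59 ± 0.24, VIP by -1.53 ± 0.17 and NMU by -1.81 ± 0.18.

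Developmental pathways were mixed at the level of lists. Notch genes were lower in 13 of 29 cases, HEY1 at -1.27 ± 0.09, NOTCH3 at -1.72 ± 0.14 and DLK1 at -1.78 ± 0.21, and higher in 7. The higher count was 4 or fewer with BEZ-235 replicate 1 or 2, DMSO replicate 2 or replicate 2 of both drugs left out, with no filter or from the 6 libraries alone. Wnt genes were even at 7 and 7 of 36, with AXIN2, a feedback target, higher at 1.20 ± 0.12 and DKK3 lower at -0.88 ± 0.09. GLI1, the target gene and effector of Hedgehog, was at 4.75, 4.09 and 4.36 CPM in DMSO and 0.96, 0.53 and 0.95 CPM with BEZ-235, low levels without overlap, a change of -2.41 ± 0.20, and PTCH1 rose by 0.48 ± 0.08. BMP and TGF-beta genes rose in 17 of 38 cases and fell in 7, with GDF11 at 1.18 ± 0.08 and ID2 at 0.79 ± 0.09, against ID3 at -0.93 ± 0.15. Guidance genes of the semaphorin and ephrin systems fell in 28 of 58 cases (48.3%). Their higher count of 9 was 5 without DMSO replicate 2. SEMA3A was at 34.0, 29 and 38.1 CPM in DMSO and 7.99, 8.77 and 8.56 CPM with BEZ-235, with no overlap and a change of -2.0 ± 0.11, while SEMA5A rose by 0.76 ± 0.10.

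Genes of cell death did not share a direction. BMF (chr15:40087890-40108892), a BH3-only protein that promotes apoptosis, was the highest of the genes ranked by size with antisense genes left out, at 22.2, 29.3 and 25.2 CPM in DMSO and 188, 160.3 and 172 CPM with BEZ-235. Its treated libraries stood far above the controls, a change of 2.76 ± 0.11 (adjusted p = 1.23e-11). BCL2, which blocks such proteins, was at 18.8, 20.8 and 23.6 CPM in DMSO and 82.4, 69.2 and 83.1 CPM with BEZ-235, also without overlap, a change of 1.89 ± 0.11 (adjusted p = 1.12e-09). BAX, CASP8 and FAS were lower, at -0.93 ± 0.10, -1.37 ± 0.15 and -1.26 ± 0.14. Of the 35 genes in the list, 9 rose and 15 fell. Targets of p53 fell in 20 of 32 cases (62.5%) and rose in 1, or 2 after the GC correction, with CDKN1A at -1.22 ± 0.08, DDB2 at -0.88 ± 0.08 and TIGAR at -1.83 ± 0.14. The only higher one was CMBL, at 0.43 ± 0.09.

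Clock genes rose in 13 of 24 cases (54.2%) and fell in 4. NR1D1, which encodes a REV-ERB repressor, was at 15.9, 17.2 and 17.3 CPM in DMSO and 38.5, 31.8 and 28.6 CPM with BEZ-235. NR1D2, the gene of the other REV-ERB, was at 121, 117 and 135 CPM in DMSO and 206, 237 and 258 CPM with BEZ-235. Both were higher in every treated library, by 0.97 ± 0.12 and 0.91 ± 0.10. ARNTL, the activator they repress, changed by -0.98 ± 0.13, NPAS2 by -0.56 ± 0.13 and CRY1 by -0.47 ± 0.09. HLF, a factor under clock control, rose by 1.20 ± 0.15.

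Chromatin genes included the deacetylases that SAHA targets. Of 18 deacetylase and sirtuin genes, 9 rose and 3 fell under BEZ-235 alone. HDAC9 was at 42.1, 36.0 and 48.7 CPM in DMSO and 107, 117 and 119.8 CPM with BEZ-235, above the controls in each library by 1.44 ± 0.09 (adjusted p = 2.78e-09), HDAC5 changed by 0.91 ± 0.09, SIRT1 by 0.65 ± 0.10 and HDAC8 by -0.42 ± 0.09. UHRF1, which recruits the maintenance DNA methyltransferase during replication, is also in the cell cycle list and was at 57, 58.8 and 54.7 CPM in DMSO and 3.16, 3.00 and 3.05 CPM with BEZ-235, a change of -4.21 ± 0.14 with no overlap, and DNMT1 fell by 1.49 ± 0.08. TET2, which oxidises methylated DNA, was higher at 0.54 ± 0.11. EZH2 and EZH1, alternative enzymes of one Polycomb complex, went apart at -1.21 ± 0.08 and 0.59 ± 0.09. Histone genes rose in 25 of 39 cases (64.1%) and fell in 4. Most histone mRNA lacks a poly(A) tail and many histone genes are near copies, so libraries of polyadenylated RNA count a minor form and single values are uncertain. HIST1H2AC changed by 1.61 ± 0.12 and HIST3H2A by 2.38 ± 0.14, while the 4 lower genes were the variants H2AFZ, H2AFX, H2AFV and H2AFY, at -1.45 ± 0.09, -1.86 ± 0.18, -0.68 ± 0.07 and -0.39 ± 0.07, whose mRNAs are polyadenylated at least in part.

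Zinc finger genes leaned higher. On chromosome 19, which holds clusters of KRAB repressors of transposable elements, 112 of 228 tested genes rose (49.1%) and 12 fell, with a median of 0.33. Zinc finger genes outside that chromosome gave 105 of 233 higher (45.1%) and 21 lower, a median of 0.25, so both sets had more higher calls than the background. Named members went further, with ZNF581 at 1.89 ± 0.11, ZNF844 at 1.15 ± 0.08 and ZNF550 at 1.22 ± 0.11, against ZNF724 at -1.58 ± 0.20 and ZNF331 at -0.94 ± 0.13. By annotated type, 3385 of 13468 protein-coding genes rose and 4096 fell. Long intergenic noncoding RNAs rose in 265 of 902 cases and fell in 104, with a median of 0.35, and processed transcripts rose in 91 of 222 cases and fell in 18. LINC01801 and LINC01270 changed by 2.02 ± 0.16 and 1.53 ± 0.22, MIR503HG and MIR22HG by -1.40 ± 0.18 and -1.39 ± 0.19. Nuclear pore genes fell in 18 of 27 cases and rose in 1, NUP155 at -0.83 ± 0.10 and NUP205 at -1.0 ± 0.09.

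At the cell surface the matrix genes were mixed, 24 of 73 lower and 16 higher. TNC (chr9:115019578-115118257), tenascin-C, was the lowest of the genes ranked outside the cell cycle, sterol and ribosomal protein lists, at 238, 189 and 228 CPM in DMSO and 24.6, 26.5 and 25.9 CPM with BEZ-235. The treated libraries were far below the controls and close to each other, a change of -3.09 ± 0.09 (adjusted p = 3.6e-13). TNR, tenascin-R of the same family and typical of mature nervous tissue, was at 45.9, 31.1 and 40.2 CPM in DMSO and 196, 194 and 213 CPM with BEZ-235, higher in all libraries by 2.37 ± 0.13. Other changes were FN1 at -1.85 ± 0.10, FBLN1 at -2.5 ± 0.09, NID2 at 1.61 ± 0.20 and BCAN at 0.97 ± 0.13. LUM, a fibroblast marker, was at 57.2, 62.4 and 62.5 CPM in DMSO and 9.6, 12.5 and 10.1 CPM with BEZ-235, far lower in the treated libraries. Of 8 fibroblast markers checked, 7 were tested, 0 rose by edgeR (0 at an unadjusted p under 0.05, 0 by DESeq2) and 3 fell, FAP was at 0 in all 6 libraries, and their sum was 103.9 to 114.4 CPM in DMSO and 36.0 to 40.4 CPM with BEZ-235. In a wider list of 12 fibroblast and stromal genes, 10 were tested, 4 fell and 1 rose, which was TAGLN, an actin-binding protein, at 1.24 ± 0.19. Their part in the matrix result was not tested. The 7 Schwann cell and glial markers summed to at most 4.65 CPM with SOX10 and CDH19 at 0, and in a wider list 3 of 8 tested rose and 1 fell. Of 7 leukocyte markers 0 were tested, with PTPRC at 0 and a sum of at most 1.34 CPM. In a wider list of 14 leukocyte genes, 4 were tested, 2 rose and 2 fell, with changes between -1.49 and 0.91, and the higher count was 0 or 1 under 17 of 20 alternatives. Of 5 endothelial markers, and of a wider list of 10, 1 was tested and did not pass. Interferon and antigen presentation genes fell in 17 of 35 cases and rose in 2, with IFIT1 at -0.82 ± 0.13 and HLA-E at 0.54 ± 0.09.

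Ion channels and solute carriers went both ways as wholes, while kinesins and ABC transporters leaned lower and forkhead and SOX factors higher. Of 79 potassium, sodium and calcium channel subunits, 26 rose and 23 fell. KCNK9, a potassium leak channel, was at 2.04, 1.60 and 1.87 CPM in DMSO and 9.70, 7.65 and 10.1 CPM with BEZ-235. KCNK3, a channel of the same kind, was at 6.11, 7.58 and 5.69 CPM in DMSO and 26.1, 22.7 and 20.9 CPM with BEZ-235. Both were higher without overlap, by 2.32 ± 0.19 and 1.84 ± 0.13. SCN9A, a sodium channel of sensory and sympathetic neurons, fell by 1.08 ± 0.14. RGS genes, which shorten signals of G proteins, had members at both extremes, as RGS9 changed by 2.17 ± 0.10 and RGS8 by -3.23 ± 0.13. Solute carriers were even at 63 higher and 75 lower of 234, with SLC7A14 at 2.06 ± 0.13 and SLC25A10 at -1.76 ± 0.18. ABC transporters were lower in 12 of 28 cases, ABCA7 at -2.36 ± 0.28 among them, and kinesins, many of which act in mitosis, in 18 of 32. Forkhead and SOX factors rose in 12 of 33 cases and fell in 3, or 5 after the GC correction, with FOXO4 at 0.92 ± 0.11 and FOXM1, a factor of mitotic genes, at -2.25 ± 0.09.

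Ranked by size among genes with a mean of at least 3 on the log2 CPM scale, no overlap between groups, a standard symbol and no antisense or pseudogene annotation, outside the cell cycle, sterol and ribosomal protein lists, the 15 highest included BMF, GAS5, TNR, SNHG1, MYOM2, C6orf48, PIM1, RGS9, KIZ, RAB31, SLC7A14, N4BP2L1, C15orf62 and IGBP1. Their changes ran from 1.94 for IGBP1 to 2.76 for BMF. ZFAS1, at 3.22, was left out as an antisense gene and EPB41L4A-AS1, at 2.42, by its antisense name. PIM1, a survival kinase that shares substrates with AKT, was at 15.8, 18.7 and 16.2 CPM in DMSO and 80.5, 76.0 and 77.3 CPM with BEZ-235, without overlap. C6orf48 is also a small nucleolar RNA host gene. The 15 lowest were TNC, CSPG4, WDR62, DDIAS, LRRC17, TUBA1B, GAP43, SHCBP1, DIAPH3, TUBA1A, LUM, TUBB4B, FBLN1, WDR34 and UCP2, from -3.09 for TNC to -2.44 for UCP2. CSPG4, the proteoglycan NG2 of progenitor cells, was at 63.9, 57.5 and 58.0 CPM in DMSO and 6.65, 8.29 and 7.70 CPM with BEZ-235, and UCP2, a mitochondrial carrier, at 58.3, 60.9 and 52.9 CPM in DMSO and 10.6, 11 and 10.2 CPM with BEZ-235, both far lower in every treated library. WDR62, DDIAS, SHCBP1 and DIAPH3 are known from proliferating cells, although they were not in the cell cycle list that was set aside.

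The same question can be asked with SAHA present, by setting both drugs against SAHA alone. Those 6 libraries entered the first comparison through the spread, the filter on low counts and the scaling of library sizes. The comparison with SAHA present called 10446 genes (58.8%). It shared 5206 genes in the same direction with the calls of BEZ-235 against DMSO, which is 57.5% of the latter and 49.8% of the former, and 869 were called in opposite directions. The 3 libraries of both drugs had higher values for GC-rich genes, with a log2 shift between genes at 61.3% and 38.5% GC of 0.455, 0.797 and 1.02, against -0.465 to -0.0311 in the DMSO and BEZ-235 libraries. After correction for GC content and length the shared calls were 6549, which is 65.6% and 70.4%, with 283 opposite. The effect of BEZ-235 differed with and without SAHA for 6834 genes (38.4%) by the interaction term, and for 3465 after that correction.

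Among the 15 highest-ranked genes, all 15 were also called higher with SAHA present, 14 after the correction, and the median change was 2.20 without SAHA and 1.44 with it, or 1.5 corrected. Among the 15 lowest, all 15 were called lower in both settings, and the median was -2.63 without SAHA and -1.96 with it, or -2.27 corrected. Since these genes were ranked on the first comparison, their values there are a description, and that choice of genes favours a smaller effect in the second comparison. Over all 17774 genes the second comparison called 28.3% higher and 24.0% lower after the correction. By list and after the correction, FOXO genes were 16 higher and 4 lower of 31 with SAHA present, and the elongation factor list 13 and 1 of 18. Nucleolar RNA hosts were 20 higher and 1 lower of 25, proteasome subunits 7 and 19 of 40, and chaperones of the endoplasmic reticulum 5 and 28 of 43. Synaptic vesicle genes were 14 higher and 7 lower of 36 and complex I genes 6 and 18 of 38. Other lists with more lower than higher calls without SAHA were nearly even or reversed with it. Genes of complexes III to V were 14 higher and 11 lower of 36, and mitochondrial ribosomal proteins 26 and 22 of 78. Cytosolic heat shock genes were 13 higher and 12 lower of 42, and NRF2 and glutathione genes 10 and 13 of 30. For HBP1 the log2 difference with SAHA present was 0.18 ± 0.10 (adjusted p = 0.143), or 0.52 corrected, against 0.86 without SAHA.

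**Figure D5:**
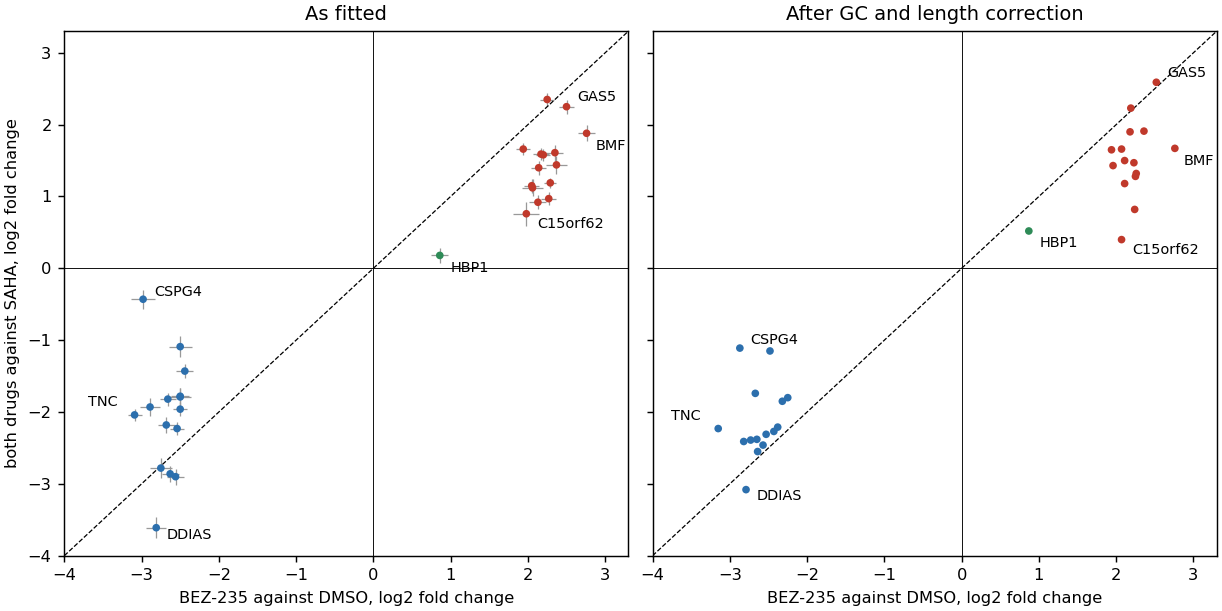
Log2 fold change of BEZ-235 without SAHA (x axis, BEZ-235 against DMSO) and with SAHA (y axis, both drugs against SAHA alone) for the 30 ranked genes and HBP1, as fitted (left) and after the GC and length correction (right), with bars of 1 SE on the left. Points lie on the same side of zero in both settings, most of them nearer to zero with SAHA, and the dashed line marks equal effects.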

How the data were processed

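RNA of 12 NB-1 samples in 4 groups of 3 was measured. Per the submitters' processing notes, the authors used STAR and RSEM with build hg38. The sources used here name no versions, settings or annotation for them. The libraries held 17662944 to 79543539 counts, and the 6 compared here 18832324 to 23408894. The deposited values are expected counts per gene, 1 column per library, with no scaling, and they were rounded before testing. Symbols, types and coordinates came from GENCODE 29 (57447 of 58051 genes matched), and promoter windows from RefSeq (GRCh38.p14).

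Genes were filtered with filterByExpr and tested by edgeR's quasi-likelihood test (edgeR 4.0.16, R 4.3.3). The model had 4 group means over all 12 libraries, scaled by TMM with factors from 0.981 to 1.03. The residual degrees of freedom were 8 and the biological coefficient of variation was 10.6%. P-values were adjusted by Benjamini-Hochberg over all 17774 genes tested, with a threshold of 0.05. CPM values use TMM-scaled library sizes. Log2 fold changes are those of the fit at edgeR's default prior count. A prior count of 2 served the log2 values for correlations between libraries and for the GC and length fit. In data simulated for 17322 genes with 100 changed at each size, 64% of 1.5-fold and 90% of 2-fold changes were recovered, with 12 false calls.

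Members and lists were chosen with earlier results of these data known. Named genes are the 15 highest and 15 lowest called genes whose groups did not overlap and whose average log2 CPM was 3 or more, with standard symbols and no antisense or pseudogene annotation, outside the lists set aside. To these were added up to 4 called members per direction of each list by smallest p, any member of the PI3K and mTOR lists, up to 3 per direction of symbol families, and MYCN, ALK and HBP1. Alternatives were relative log expression factors, DESeq2 1.42.0, unrounded counts, no filtering, stricter filtering at an average of 1 CPM, the 6 libraries alone, a replicate block, GC and length offsets (mgcv 1.9.3), and each of 12 libraries left out. No 2 libraries held identical values, and 0 columns lacked a sample. Some genes that these rules name are not reported here. The GC-corrected form of the interaction term was added after seeing the data.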

Additional observations from a re-analysis of the deposited data

Results flagged for a closer look

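The effect of BEZ-235 differed with and without SAHA, by the interaction term of the edgeR fit (adjusted p under 0.05 over all genes), for 23 of the 30 ranked genes and for HBP1. The values here are the log2 effect with SAHA minus the effect without it. Of the 15 highest-ranked genes, 12 rose less with SAHA, among them BMF -0.88, TNR -0.93, SNHG1 -0.74, MYOM2 -1.3, PIM1 -0.62, RGS9 -0.58, KIZ -0.74, RAB31 -1.21, SLC7A14 -0.94, N4BP2L1 -0.90 and C15orf62 -1.21. Of the 15 lowest, 10 fell less with SAHA: TNC 1.05, CSPG4 2.56, WDR62 0.96, TUBA1B 0.50, GAP43 0.84, LUM 0.71, TUBB4B 0.72, FBLN1 0.53, WDR34 1.41 and UCP2 1.01. DDIAS fell further, with -0.80. For HBP1 the difference was -0.68. These genes were ranked on the effect without SAHA, which is subtracted in the difference, so the choice of genes favours a smaller effect with SAHA and the counts support nothing. The share of all genes with an interaction was 38.4%. With GC and length offsets 19 of the 30 had an interaction, beside 3465 of all 17774 genes. Of the 19, 18 were among the 23 and had the same sign. RGS9 (corrected difference -0.28), DDIAS (-0.28), TUBA1B (0.27), TUBB4B (0.16) and FBLN1 (0.17) no longer passed, IGBP1 (-0.29) passed only then, and HBP1 still passed at -0.35. Among the others the corrected difference moved by over 1.5 times for SNHG1 (-0.45), PIM1 (-0.94), SLC7A14 (-0.53), N4BP2L1 (-0.41), WDR62 (0.41), LUM (1.33), WDR34 (0.46) and UCP2 (0.47). MYCN (-0.04) and ALK (0.06) had no interaction as fitted, and passed at -0.40 and -0.33 corrected. The part of the GC shift of the both-drug libraries in the other differences was not tested.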

How the results depend on the processing

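The number of genes called for BEZ-235 against DMSO, 9051, was 8562 with a replicate block, 8920 by DESeq2, 9984 with GC and length offsets and 8482 with the stricter filter. It ranged from 7819 to 9422 with 1 library left out, with 3785 to 4565 higher and 4030 to 4857 lower. The labels do not say that a replicate number marks a shared culture or day, so the numbers were not taken as pairs. Same-numbered DMSO and BEZ-235 libraries deviated together with r = 0.000215, -0.0438 and 0.128, and not every library correlated best with its own number. With 3 libraries per group, these values cannot exclude an effect that same-numbered libraries share. The count for both drugs against SAHA alone, 10446, was 9962 with the replicate block, 9301 with GC and length offsets and 9034 to 10585 with 1 library left out. Under the GC and length offsets the genes called in opposite directions went from 869 to 283, and those with an interaction from 6834 to 3465. Of 284 genes of the text that were checked, 282 kept their direction, their call and, within 1.5 times, their fold change under all 20 alternatives. The exceptions were ALK, which lost its call under 10 of them, and MYCN, not called under any, which turned from -0.04 to 0.03 with GC and length offsets and ranged from -0.14 to 0.01 with 1 library left out (0.01 without DMSO replicate 2). The cause was not tested. Genes were mostly named for a small p or a large change without overlap. That choice favours stable values, so the 282 do not describe all 9051 calls. Of 1680 values of list medians, 1632 stayed within the spread between replicates. In the simulated data 64% of 1.5-fold changes were recovered, with only 100 genes changed at that size. Far more genes were called here, and the adjustment depends on that number, so the share does not carry over.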

Other observations

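Some families outside the lists above also had members with large changes, given as values without explanation. Neurotransmitter-gated channel subunits were 7 higher and 12 lower of 33, with GRIN1 at 0.84 ± 0.15, GRIA4 at 1.35 ± 0.10, GRIN3A at -1.40 ± 0.22 and GRIK3 at -0.93 ± 0.08. RAB31 and RAB37, small GTPases of vesicle traffic, changed by 2.13 ± 0.11 and 2.25 ± 0.18, and RAB15 by -1.72 ± 0.12. RND3, an atypical small GTPase that relaxes actin fibres, changed by -1.72 ± 0.12. Among KLF and SP factors 7 of 17 rose and 2 fell, with KLF9 at 0.76 ± 0.08, KLF13 at 0.81 ± 0.07 and KLF10 at -0.94 ± 0.09. Homeobox cluster genes were 9 higher and 1 lower of 24 (0 lower without BEZ-235 replicate 3 or DMSO replicate 3 or with no filter, and 6 to 11 higher over the alternatives), with HOXC4 at 1.20 ± 0.22, HOXC6 at 0.89 ± 0.13 and HOXD10 at 0.81 ± 0.09. The splicing kinase CLK1 and the neuronal splicing factor RBFOX1 changed by 1.40 ± 0.23 and 0.91 ± 0.09, and HNRNPAB, HNRNPA3 and HNRNPA2B1 by -0.83 ± 0.09, -0.82 ± 0.09 and -0.72 ± 0.08. Cilium genes were even, 15 higher and 15 lower of 65, with CC2D2A at 0.64 ± 0.08, IFT20 at 0.70 ± 0.11 and WDR34 at -2.5 ± 0.15.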
